A study of Mus musculus with 48 samples.

Results

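Bone marrow-derived macrophages that lack p53 were compared with wild-type macrophages after activation with lipopolysaccharide (LPS) and interferon-γ (IFN-γ), without compound. The 6 libraries were chosen by their titles, 3 labelled p53 knockout (KO) and 3 labelled wild-type (WT), out of 48 in the series, and all 11779 genes that passed the filter on low counts, of 51789 in the table, were tested. Both groups were C57BL/6 cells grown from hematopoietic stem cells of bone marrow for 6 days in M-CSF at 10 ng/mL, then kept for 24 h with LPS at 100 ng/mL and murine IFN-γ at 50 ng/mL (M1), and given the vehicle DMSO for 4 h. For comparison, 6 other libraries of the same polarization had received 10 µM of the compound AP-3-84 in place of DMSO, and the labels say nothing of what it targets. KO and WT cells were also profiled after DMSO without polarizing cytokines (M0) and after polarization with IL-4 plus IL-13, both at 10 ng/mL (M2), with 3 libraries per group. The labels give neither the allele, nor whether p53 was missing from the whole animal, nor the age or sex of the mice, nor whether replicates came from separate cultures, so p-values measure only the spread between these samples, which may be technical.

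The p53 protein (gene Trp53) is a transcription factor that is held at a low level by the ubiquitin ligase Mdm2 and accumulates after DNA damage and other stress. It binds pairs of short half-sites near genes that stop the cell cycle, repair DNA or trigger apoptosis, and several of these genes, Mdm2 among them, feed back on p53 itself. LPS acts through Toll-like receptors on NF-kB and IFN-γ through JAK kinases, and together they drive macrophages to make cytokines, chemokines and nitric oxide. A separate pathway, the integrated stress response, acts through the factor ATF4 on genes for amino acid synthesis and tRNA charging when protein synthesis is limited.

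Total counts of the 6 libraries ranged from 3625160 to 4645148. The 3 KO libraries had at least 1 count in 14348 to 14754 genes and the 3 WT libraries in 13473 to 13855, and 13.5% to 17.6% of KO counts and 22.9% to 23.3% of WT counts fell in each library's 10 top genes. KO replicate 2 stood apart: over the 11779 genes its log2 CPM (counts normalised to library size, with TMM factors) correlated with WT libraries at Pearson r from 0.959 to 0.962, against 0.93 to 0.944 for the other KO libraries, a description across genes that share these libraries. With KO replicates 1 and 3, KO replicate 2 correlated at r of 0.949 and 0.967. The WT libraries correlated with each other at 0.979 to 0.982. Of the 1372 genes called below, KO replicate 2 was the KO library nearest to WT in 886 (64.6%).

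The labels were checked against marker genes. Trp53 (ENSMUSG00000059552) stood at 7.97, 9.11 and 3.79 CPM in KO replicates 1 to 3 and at 9.54, 7.42 and 7.30 CPM in WT, overlapping ranges (log2 fold change -0.22, SE 0.391, edgeR adjusted p 0.765). Which exons the allele lacks is not stated, and reads from the 3′ end cannot check a deletion that lies elsewhere. In the genotype field both groups read wild-type, whereas their titles and the series design name them KO and WT, and the p53 target genes below checked that grouping. Macrophage genes were abundant: in WT, Lyz2 (lysozyme) stood at 39200 ± 1440 CPM (SD, n = 3), Adgre1 (F4/80) at 2610 ± 219 and Csf1r (the M-CSF receptor) at 1660 ± 263. The Fc receptor gene Fcgr1, chosen as a macrophage marker, was at 374 ± 32 CPM in WT M1 against 59.4 ± 22 in WT M0. Among the genes chosen as M1 markers, Acod1, which makes itaconate, was at 944 ± 92.4 CPM in WT M1 against 325 ± 123 in WT M0. Nos2, the inducible nitric oxide synthase, reached only 3.38 ± 1.68 CPM and the chemokine Cxcl9 4.01 ± 1.36 CPM in WT M1, both against 0.256 ± 0.443 in WT M0. Most of the M1 markers did not set M1 apart from M2. In WT M2 Cxcl9 stood at 0.106 ± 0.183 CPM, but Acod1 at 732 ± 748 and Nos2 at 2.28 ± 2.44. Fcgr1 was at 9.77 ± 9.15 CPM in WT M2. Gbp2, an IFN-γ inducible GTPase gene, and Il12b were at 101 ± 46 and 9 ± 7.83 CPM in WT M2 and at 57.8 ± 9.02 and 5.17 ± 0.684 CPM in WT M1.

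Markers of some other cell types differed between the genotypes with vehicle. The summed level of 10 neutrophil and granulocyte precursor markers was 1010 to 2560 CPM in KO and 449 to 577 CPM in WT. None of the 10 was at 0 in all 3 libraries of either group. Ly6g, a defining neutrophil gene, had 1 count over the KO and 2 over the WT libraries. S100a8 and S100a9 made up most of the neutrophil sum. They had 12729 and 7166 counts over the KO and 4118 and 1244 over the WT libraries. Neither was called (edgeR adjusted p 0.203 and 0.0509), while Mpo, Ngp and Ltf of the 7 tested were called higher. Of 6 fibroblast markers the sum was 97.5 to 135 CPM in KO and 21.7 to 46.6 CPM in WT. Of 6 osteoclast markers it was 188 to 543 and 118 to 149 CPM, with 2 of those 6 at 0 in WT. Acp5, not called (edgeR adjusted p 0.17), made up most of the osteoclast sum. It had 4320 counts over the KO and 1463 over the WT libraries. Ctsk was the 1 of 4 tested osteoclast markers that was called. Markers of B cells, T and NK cells, dendritic cells, mast cells and erythroid cells summed to no more than 8.93 CPM in any of the 6 libraries. With the compound in place of vehicle, the neutrophil sums overlapped, at 748 to 3730 CPM in KO and 686 to 1350 CPM in WT. The osteoclast sums overlapped too, at 153 to 391 and 195 to 298 CPM. There, 0 of the tested neutrophil and osteoclast markers were called by edgeR. The fibroblast sums stayed apart with the compound, at 95.2 to 144 CPM in KO and 22.4 to 43.6 CPM in WT. The part of such cells in the results below was not tested, and in bulk RNA fewer cells of a type and less RNA per cell cannot be told apart.

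Loss of p53 went with changes in both directions in M1 macrophages. The stress gene Gadd45b, the p53 targets Phlda3 and Plk2, and the integrated stress response genes Gdf15 and Atf4 had the lowest p-values among the genes named here. At a Benjamini-Hochberg adjusted p under 0.05 in edgeR's quasi-likelihood test, 1372 of 11779 genes (11.6%) were called, 699 higher (5.93%) and 673 lower (5.71%) in KO. Of the called genes, 623 changed at least 2-fold, 432 of them upward. In 1326 of the 1372 genes the KO and WT libraries did not overlap, and over all tested genes they did not overlap in 34.1%.

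The balance of directions depended on the scaling. With libraries scaled by total counts alone, the median log2 fold change of all genes moved from 0.00372 to 0.272, and 1863 of 2093 calls (89%) were upward in place of 50.9%. The changes below are therefore relative to the TMM-scaled median. Without KO replicate 2, 1778 genes were called, of which 1214 were among the 1372 and had the same direction. Leaving out any other of the 6 libraries gave from 580 calls (without KO replicate 3) to 786 (without WT replicate 3), with 693 without WT replicate 1, 674 without WT replicate 2 and 668 without KO replicate 1.

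**Figure D1:**
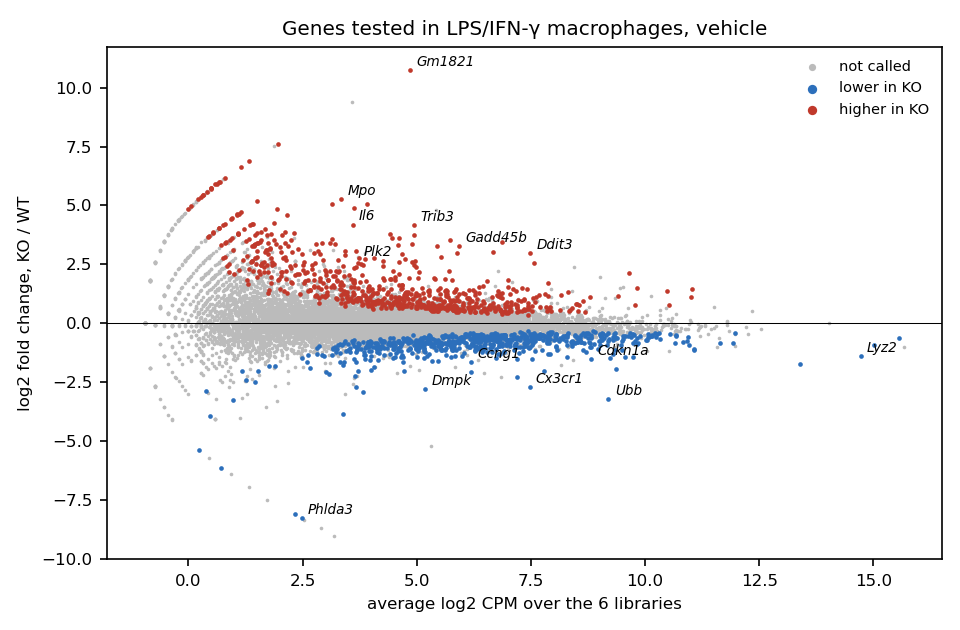
Log2 fold change of KO against WT (vertical axis) by average log2 CPM over the 6 libraries (horizontal axis), 1 point per tested gene, red for genes called higher in KO (699), blue for genes called lower (673) and grey for the rest. Gadd45b and Plk2 stood among the rises and Phlda3 and Ubb among the falls.

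The 6 AP-3-84 libraries gave a second comparison of the genotypes that shared no library with the first, although the labels do not say whether the cultures were the same. Deviations from the group mean of same-numbered KO libraries with DMSO and with AP-3-84 correlated at r of 0.316, 0.406 and -0.091 over genes for replicates 1, 2 and 3, and those of WT libraries at -0.028, -0.002 and -0.052. Differently numbered libraries ranged from -0.486 to 0.248 in KO and from -0.047 to 0.07 in WT. With 3 libraries per group these values cannot decide whether cultures were shared. In the AP-3-84 comparison, 1395 genes (11.8%) were called, 596 higher (5.06%) and 799 lower (6.78%) in KO. Of the 1372 genes called in vehicle, 1317 (96%) had the same sign with AP-3-84, against 70.4% of all tested genes. Of them, 587 were called in the same direction, which is 42.8% of the vehicle calls and 42.1% of the AP-3-84 calls, and 0 were called in the opposite direction by edgeR.

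Several canonical p53 targets were lower in KO, Phlda3, Ccng1 and Cdkn1a among them, while others were not called or were higher. The list held 33 genes, of which 29 were tested. In KO, 8 were called lower and 3 higher, or 37.9% of the 29 beside 11.6% of all tested genes, and the median log2 fold change was -0.50 beside 0.00372. The list's median was the same with Phlda3 set to its bound, and with libraries scaled by total counts it was -0.23, with 6 lower and 5 higher. Of the 4 that were not tested, Eda2r, a death receptor gene, had 0 counts over the KO and 6 over the WT libraries, Perp had 0 in both, Ddb2 had 9 and 2, and Zfp365 had 3 and 2.

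Cdkn1a (ENSMUSG00000023067, chr17:29090976-29100727 in GRCm38, plus strand) encodes p21, the cyclin-dependent kinase inhibitor through which p53 arrests the cell cycle. A promoter window at the upstream end of the gene is shown because it holds a near-complete p53 site. It runs from 250 bases before to 50 bases after an annotated transcript start (chr17:29090729-29091028, plus strand, RefSeq, GRCm38.p6). The capitals mark a match to the p53 consensus of 2 abutting half-sites of 10 bases with 1 mismatch, from 51 to 32 bases before that start. Reads from the 3′ end do not show which start was in use, so the distance of the site from that one is not known.
Cdkn1a: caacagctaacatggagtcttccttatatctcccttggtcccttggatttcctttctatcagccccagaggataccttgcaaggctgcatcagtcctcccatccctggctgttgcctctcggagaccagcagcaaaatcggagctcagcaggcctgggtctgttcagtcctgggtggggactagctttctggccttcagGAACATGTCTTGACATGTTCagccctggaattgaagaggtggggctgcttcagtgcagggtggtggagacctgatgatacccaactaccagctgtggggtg
Such a match, with at most 3 mismatches and both half-site cores intact, was found on either strand in a promoter window of 4 of 22 matched tested p53 targets (18.2%), namely Cdkn1a, Aen, Bbc3 and Rps27l, and of 0.606% of all matched tested genes. A match is a description of letters and not evidence of binding.

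Cdkn1a stood at 252, 196 and 247 CPM in KO replicates 1 to 3 and at 687, 609 and 719 CPM in WT. The groups did not overlap, and KO was 2.90-fold lower (log2 fold change -1.54, SE 0.277, edgeR adjusted p 0.000655). Phlda3 (ENSMUSG00000041801), a p53-induced repressor of AKT signalling, had 0 counts in the 3 KO libraries and stood at 9.24, 9.80 and 11.8 CPM in WT. With a group floor of 3 counts, the KO level was lower by a factor of at least 41.7 (edgeR adjusted p 4.85e-07). Ccng1, the cyclin G1 gene, stood at 33.0, 36.2 and 34.6 CPM in KO and at 113, 109 and 108 CPM in WT (log2 fold change -1.67, SE 0.230, edgeR adjusted p 2.16e-05). Both were clear of WT in every library, and the KO values of Ccng1 lay within a narrow band. Zmat3, an RNA-binding protein gene, stood at 11.5, 10.1 and 8.93 CPM in KO and at 22.1, 22.5 and 26.7 CPM in WT (log2 fold change -1.22, edgeR adjusted p 0.00331).

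The other falls were less stable when libraries were left out. Psrc1, a microtubule regulator gene, had 3 counts over the KO libraries against 30 over the WT libraries, a 10.9-fold lower level (95% exact binomial interval of the split of counts, counting error only, 3.38 to 55.7). The call of Psrc1 was lost without KO replicate 3 (edgeR adjusted p 0.079). Sesn1, a stress-induced inhibitor of mTORC1 (log2 fold change -1.65), was lost without WT replicate 2, KO replicate 1 or KO replicate 3 (edgeR adjusted p up to 0.0819). Plk3, another polo-like kinase gene, was lost without WT replicate 1 or 2 or KO replicate 1 or 3 (up to 0.148), and Dglucy (log2 fold change -0.70) without any 1 of the 6 libraries (up to 0.161). Both were also lost under scaling by total counts. The list held 4 falls and 3 rises without KO replicate 3. It held 5 falls without WT replicate 2 or KO replicate 1, and 6 falls without WT replicate 1. With only the 6 libraries fitted it held 10 falls and 3 rises, and with no filter on low counts 9 and 3.

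**Figure D2:**
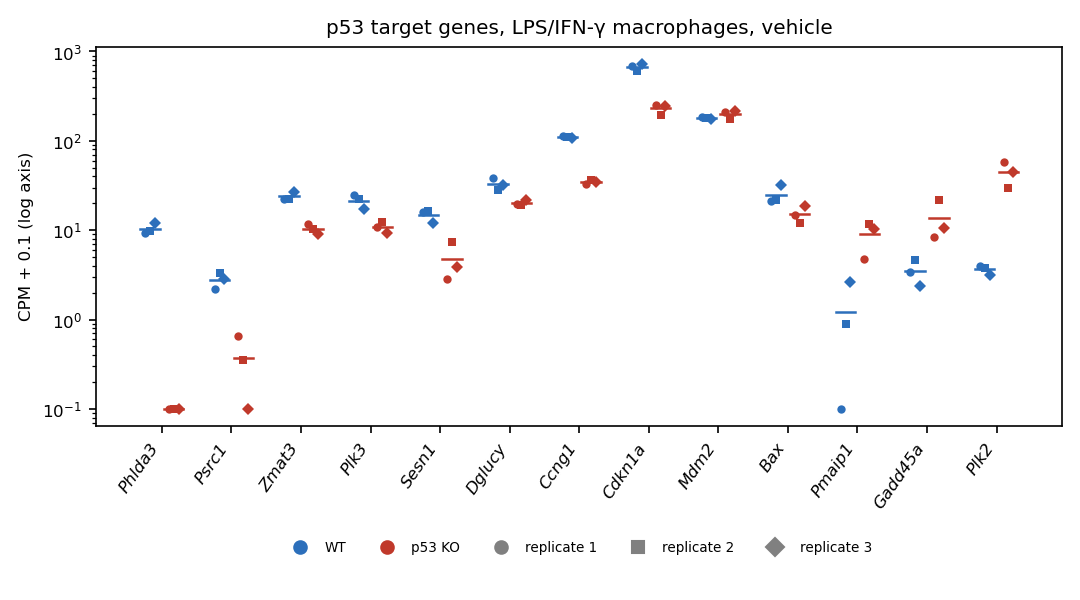
CPM plus 0.1 on a log axis for 13 p53 target genes, 1 point per library (circle, square and diamond for replicates 1, 2 and 3), blue for WT and red for KO, with bars at the group means. Phlda3 was at 0 in the 3 KO libraries, the ranges of Mdm2 overlapped, and Pmaip1, Gadd45a and Plk2 were higher in KO.

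Not every target was lower in KO. Plk2, a polo-like kinase gene, rose from 3.88, 3.71 and 3.02 CPM in WT to 58.0, 29.6 and 45.1 CPM in KO, a 12.4-fold difference (log2 fold change 3.64, SE 0.348, edgeR adjusted p 3.52e-08). Pmaip1, which encodes the pro-apoptotic protein NOXA, stood at 0, 0.795 and 2.52 CPM in WT and at 4.67, 11.6 and 10.3 CPM in KO (log2 fold change 2.92, edgeR adjusted p 0.0035). Gadd45a was higher by 2.00 on the log2 scale (edgeR adjusted p 0.0175), a call lost without WT replicate 1, WT replicate 3 or KO replicate 2 (up to 0.0862). Its relative Gadd45b, which is not on the list and is induced by NF-kB and by stress, had the lowest p of all tested genes. Gadd45b stood at 9.24, 13.0 and 11.3 CPM in WT and at 119, 113 and 93.7 CPM in KO (log2 fold change 3.27, SE 0.238, edgeR adjusted p 4.38e-11).

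Mdm2 did not follow Cdkn1a. It stood at 213, 173 and 213 CPM in KO and at 186, 179 and 177 CPM in WT, overlapping ranges (log2 fold change 0.14, SE 0.269, edgeR adjusted p 0.779). The remaining 17 tested targets were not called, with log2 fold changes from -1.38 (Trp53inp1) to 0.93 (Rrm2b). Among them Bax (log2 fold change -0.72), Aen (-0.70), Apaf1 (-1.01), Ei24 (-0.52) and Tnfaip8 (-0.41), and on the higher side Xpc (0.69), a DNA damage sensor gene, had edgeR adjusted p-values between 0.0633 and 0.0907, and the death receptor genes Fas (-0.05) and Tnfrsf10b (-0.14) lay near 0. The others were Btg2, Bbc3, Pidd1, Rps27l, Sesn2, Polk and Ercc5. In some of the alternative fits Trp53inp1, Aen, Apaf1 and Rps27l were called lower, and Rrm2b and Xpc higher.

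Of 17 tested members of the p53 family and its regulators, 2 were called higher and 1 lower (17.6% beside 11.6% of all genes). Cdkn2a, the locus of ARF and p16, stood at 5.22, 3.80 and 6.25 CPM in KO and at 0.596, 1.06 and 1.01 CPM in WT, so the groups did not overlap (log2 fold change 2.46, SE 0.553, edgeR adjusted p 0.00389). The kinase gene Atr was higher (1.01), a call lost without WT replicate 1 or 2 or KO replicate 3 (edgeR adjusted p up to 0.149), and Trp53bp1 was lower (-0.69), a call lost without any 1 library (up to 0.167). The cyclin-dependent kinase inhibitor gene Cdkn1c (p57) was called higher (edgeR adjusted p 0.0117) at 40 counts over the KO and 2 over the WT libraries, an 18.4-fold ratio (95% counting interval 4.77 to 157), and was lost without WT replicate 1, WT replicate 2 or KO replicate 1 (up to 0.0635).

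Most of the integrated stress response genes listed were higher in KO. Of the 21 genes on this list, all of them tested, 14 were called higher and 0 lower in KO by edgeR, or 66.7% beside 5.93% of all tested genes called higher. At an unadjusted p under 0.05, 15 were higher and 1 lower, and DESeq2 called 15 higher and 0 lower. The list's median log2 fold change was 1.35 and its summed level was 2280 to 3000 CPM in KO and 1680 to 1790 CPM in WT. The number called higher was 10 without WT replicate 2 and from 11 to 14 without each other library, 14 of these without KO replicate 2.

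The regulators were among them. Atf4 (ENSMUSG00000042406), the transcription factor at the centre of the pathway, stood at 440, 287 and 351 CPM in KO and at 103, 115 and 115 CPM in WT (log2 fold change 1.70, SE 0.191, edgeR adjusted p 7.64e-07). Ddit3, which encodes CHOP, stood at 439, 176 and 336 CPM in KO and at 31.9, 39.7 and 48.1 CPM in WT (log2 fold change 2.99, edgeR adjusted p 8.15e-06). The KO libraries lay above all WT libraries for both genes, with KO replicate 2 the lowest of the 3. Atf3 was higher by 1.51 on the log2 scale (edgeR adjusted p 1.47e-05). Ppp1r15a, whose product GADD34 reverses the block of translation, stood at 53.3, 61.5 and 35.9 CPM in KO and at 7.15, 9.27 and 8.31 CPM in WT (log2 fold change 2.60, edgeR adjusted p 1.5e-06).

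Downstream genes rose as well. Gdf15, a secreted stress cytokine, stood at 121, 77.2 and 112 CPM in KO and at 14.6, 11.1 and 13.3 CPM in WT, 7.92-fold apart (log2 fold change 2.98, SE 0.320, edgeR adjusted p 5.03e-07). Trib3, a pseudokinase that restrains the pathway, stood at 66.2, 37.2 and 67.4 CPM in KO and at 3.58, 3.71 and 2.27 CPM in WT (log2 fold change 4.16, edgeR adjusted p 5.38e-05). Chac1, a glutathione-degrading enzyme gene, rose by 2.68 (edgeR adjusted p 0.00478), Asns, the asparagine synthetase gene, by 1.92 (0.000796) and Cars, a cysteinyl-tRNA synthetase gene, by 1.42 (0.000152). None of these 5 calls was lost when 1 library was left out. Nupr1 (1.30), Shmt2 (1.23), Phgdh (2.40), Mthfd2 (0.90) and Psat1 (1.35), 4 of them enzymes of serine and one-carbon metabolism, were also called (edgeR adjusted p from 0.00743 to 0.0181). Each was lost in some of the fits that left out 1 library: Nupr1 without WT replicate 1 or KO replicate 1 (up to 0.0537), Shmt2 and Phgdh without WT replicate 2, WT replicate 3 or KO replicate 3 (up to 0.0649 and 0.0691), Mthfd2 without any WT replicate or KO replicate 1 (up to 0.0714) and Psat1 without WT replicate 1 or 2 or KO replicate 3 (up to 0.103).

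**Figure D3:**
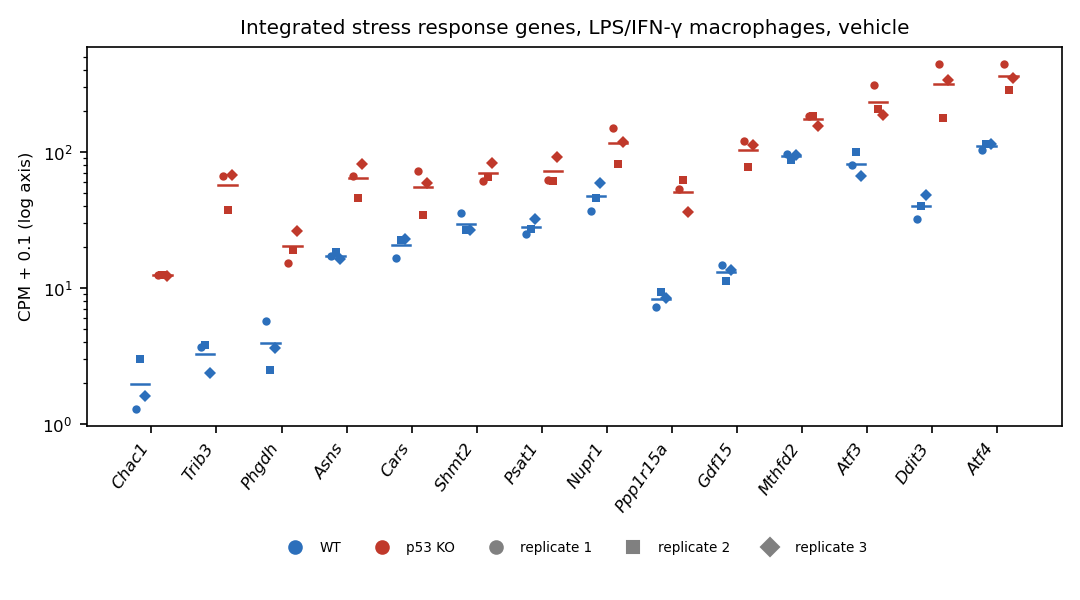
CPM plus 0.1 on a log axis for the 14 called genes of the integrated stress response list, 1 point per library (circle, square and diamond for replicates 1, 2 and 3), blue for WT and red for KO, with bars at the group means. For each of these genes the 3 KO libraries lay above the 3 WT libraries.

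The promoters of 4 of these genes are shown because they hold the letters of the C/EBP-ATF response element, the composite site through which ATF4 acts with a C/EBP partner. The motif searched was TGATGNAA on both strands, in the same windows from 250 bases before to 50 bases after the start (RefSeq, GRCm38.p6), and the capitals mark it. The windows lie at chr6:7693160-7693459 (minus strand) for Asns, chr1:191183284-191183583 (minus strand) for Atf3, chr2:119350992-119351291 (plus strand) for Chac1 and chr2:152344011-152344310 (minus strand) for Trib3.
Asns: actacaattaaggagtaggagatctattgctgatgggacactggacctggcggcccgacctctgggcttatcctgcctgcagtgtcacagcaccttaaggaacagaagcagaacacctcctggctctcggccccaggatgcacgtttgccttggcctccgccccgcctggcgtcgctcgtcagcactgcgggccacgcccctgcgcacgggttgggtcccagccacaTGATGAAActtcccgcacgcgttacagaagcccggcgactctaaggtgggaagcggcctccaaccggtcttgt
Atf3: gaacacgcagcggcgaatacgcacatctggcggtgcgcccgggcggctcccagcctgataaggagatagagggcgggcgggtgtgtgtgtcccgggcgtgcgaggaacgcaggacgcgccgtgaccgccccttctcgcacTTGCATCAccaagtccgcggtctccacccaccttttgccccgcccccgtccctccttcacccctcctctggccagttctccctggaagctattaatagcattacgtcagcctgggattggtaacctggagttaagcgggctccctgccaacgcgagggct
Chac1: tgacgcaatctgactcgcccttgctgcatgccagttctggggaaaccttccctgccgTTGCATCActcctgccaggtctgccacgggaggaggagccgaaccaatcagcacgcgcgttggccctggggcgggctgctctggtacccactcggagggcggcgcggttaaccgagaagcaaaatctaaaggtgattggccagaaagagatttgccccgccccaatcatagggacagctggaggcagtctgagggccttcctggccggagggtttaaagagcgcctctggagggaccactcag
Trib3: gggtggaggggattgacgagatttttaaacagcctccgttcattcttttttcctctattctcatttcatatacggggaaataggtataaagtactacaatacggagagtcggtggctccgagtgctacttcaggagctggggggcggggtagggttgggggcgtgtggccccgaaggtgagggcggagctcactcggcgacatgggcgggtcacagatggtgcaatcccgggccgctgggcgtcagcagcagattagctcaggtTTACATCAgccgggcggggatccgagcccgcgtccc
The motif was found in a window of 6 of 18 matched tested genes of the list (33.3%), the others being Nupr1 and the uncalled Vldlr. It was found in 2.8% of all matched tested genes, in 6.88% of those called higher and in 3.21% of those called lower in KO.

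The genotype effect on these genes was also measured in the other conditions. With AP-3-84, 11 of the 21 genes were called higher and 0 lower in KO by edgeR, beside 5.06% and 6.78% of all tested genes. The median log2 fold change of the 21 was 1.03, and 10 of the 11 were among the 14 called in vehicle. Of all genes called higher in vehicle, 39.1% were called higher again. In M2, 1 of the 21 genes was called higher and 1 lower (median 0.44), beside 1.21% and 2.34% of all tested genes. In M0, 3 were higher and 7 lower (median -0.47), beside 16.4% and 16.8% of all tested genes. The difference of the genotype effect itself was called for 12 of the 21 genes between M1 and M0 and for 6 between M1 and M2, beside 20.7% and 2.87% of all tested genes. Gdf15 was lower in KO than in WT in M0 (log2 fold change -2.56), and the difference of M1 minus M0 was 5.54 (edgeR adjusted p 4.07e-09). With AP-3-84, Gdf15 stood at 133, 97.2 and 102 CPM in KO and at 63.4, 54.7 and 96.9 CPM in WT and was not called (log2 fold change 0.63, edgeR adjusted p 0.15), although the lowest KO library lay just above the highest WT library.

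Several inflammatory genes were higher in KO. Of 15 tested cytokine genes, 3 were called higher and 0 lower by edgeR (20% beside 11.6%), of 26 chemokine and chemokine receptor genes 6 higher and 1 lower, of 16 NF-kB subunit and inhibitor genes 5 higher and 0 lower, and of 11 costimulatory and checkpoint genes 4 higher and 0 lower. At an unadjusted p under 0.05 the genes on the lower side numbered 0 cytokines, 2 chemokines, 1 NF-kB gene and 1 costimulatory gene, and DESeq2 called 0, 1, 0 and 1 lower. The median log2 fold changes of these lists were 0.94, 0.61, 0.45 and 0.64. With no filter on low counts 7 cytokines were higher and 0 lower, and 12 chemokine genes higher and 4 lower, and with only the 6 libraries fitted the counts were 6 and 0 and 10 and 1. The NF-kB count was 1 without WT replicate 2 and 2 without each other library except KO replicate 2, the chemokine count of rises was 4 without WT replicate 3, and the costimulatory count was 2 without WT replicate 1, WT replicate 3, KO replicate 1 or KO replicate 3.

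Il12b, the p40 subunit of IL-12 and IL-23, stood at 61.0, 34.2 and 64.3 CPM in KO and at 5.96, 4.77 and 4.78 CPM in WT, 10.2-fold apart (log2 fold change 3.36, SE 0.532, edgeR adjusted p 0.000152). Il6 stood at 8.79, 37.2 and 19.2 CPM in KO and at 0.298, 2.38 and 0.755 CPM in WT (log2 fold change 4.19, SE 0.841, edgeR adjusted p 0.0022). For both cytokines every KO library exceeded every WT library, with KO replicate 2 the lowest for Il12b and the highest for Il6. Csf1, which encodes M-CSF, was higher by 2.17 (edgeR adjusted p 0.00825), a call lost without WT replicate 2 (0.0501). Tnf and Il1b were not called, at log2 fold changes of 0.04 and 1.06 (edgeR adjusted p 0.967 and 0.292).

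Among chemokines, Ccl3 stood at 1562, 912 and 1469 CPM in KO and at 281, 402 and 208 CPM in WT (log2 fold change 2.15, SE 0.470, edgeR adjusted p 0.00447). Cxcl10, an interferon-induced chemokine, stood at 93.4, 283 and 164 CPM in KO and at 17.6, 32.6 and 16.9 CPM in WT (log2 fold change 3.01, edgeR adjusted p 0.00522). The neutrophil attractants Cxcl2 and Cxcl1 were higher by 2.55 and 2.58 (edgeR adjusted p 0.00599 and 0.00912), Cxcl1 being lost without WT replicate 3 (0.0522) and Cxcl2 when only the 6 libraries were fitted (0.0539). The atypical receptor Ccrl2 was higher by 2.63 (edgeR adjusted p 0.000128), and Cxcl11 was called at 49 counts over the KO and 3 over the WT libraries, a 15-fold ratio (95% counting interval 4.85 to 75.3) and a call lost without WT replicate 2, WT replicate 3 or KO replicate 1 (up to 0.0996). The fractalkine receptor gene Cx3cr1 was the exception, at 24.4, 85.1 and 31.9 CPM in KO and 306, 270 and 345 CPM in WT (log2 fold change -2.70, SE 0.572, edgeR adjusted p 0.00348).

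Of the NF-kB genes, the subunit gene Rel was higher by 1.29 (edgeR adjusted p 0.0064). Traf1 (1.11), Nfkbib (0.58), Tnip1 (0.82) and Tnfaip3 (1.36), which encode signalling adaptors and inhibitors, were called at edgeR adjusted p-values from 0.0204 to 0.0414, and each was lost without at least WT replicate 2 (up to 0.201 without 1 library). Cd274, the gene of the checkpoint ligand PD-L1, stood at 355, 173 and 220 CPM in KO and at 86.1, 93.0 and 90.6 CPM in WT (log2 fold change 1.47, SE 0.317, edgeR adjusted p 0.00342). The ligand gene Icosl was higher by 1.85 (edgeR adjusted p 0.00371), and Cd86 (1.36) and Cd40 (0.75) were called but lost without WT replicate 1, WT replicate 3, KO replicate 1 or KO replicate 3, and Cd40 also without WT replicate 2 (up to 0.155 and 0.166). Cd83, a maturation marker, was 13.4-fold higher, at 66.2, 54.4 and 46.9 CPM in KO and 3.28, 3.97 and 5.04 CPM in WT (log2 fold change 3.75, edgeR adjusted p 6.8e-06).

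Effector genes moved in part. Nos2 was called higher at the margin (log2 fold change 1.84, edgeR adjusted p 0.0492) with 10.2, 17.7 and 8.70 CPM in KO and 3.88, 4.77 and 1.51 CPM in WT, and the call was lost without any 1 library (up to 0.181). Ptgs2, the inducible cyclooxygenase gene, stood at 31.6, 152 and 54.7 CPM in KO and at 11.0, 16.7 and 6.55 CPM in WT (log2 fold change 2.80, edgeR adjusted p 0.00698), a call lost when only the 6 libraries were fitted (0.0578). Alox5ap, which presents substrate to 5-lipoxygenase, was lower (-0.77, edgeR adjusted p 0.000213). Casp4, the sensor of cytosolic LPS (caspase-11), was higher by 1.44 (edgeR adjusted p 0.00415).

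Few interferon genes were called. Of 37 tested type I interferon-stimulated genes 1 was called higher and 0 lower by edgeR (2.7% beside 11.6%), with 5 higher and 0 lower at an unadjusted p under 0.05 and 1 and 0 by DESeq2. The counts were 8 and 1 with no filter on low counts and 7 and 1 when only the 6 libraries were fitted. The called gene was Xaf1, an apoptosis regulator gene, at 175, 177 and 123 CPM in KO and 61.1, 64.1 and 58.7 CPM in WT (log2 fold change 1.37, edgeR adjusted p 0.00778). Of 16 IFN-γ inducible GTPase genes only Irgm2 was called (log2 fold change -1.45), and it was lost without any library except KO replicate 2 and under scaling by total counts (edgeR adjusted p up to 0.149). The list held 5 rises and 2 falls when only the 6 libraries were fitted, and 3 and 1 with no filter on low counts. Of 10 tested MHC class II genes 0 were called by edgeR or by DESeq2, and 1 was higher at an unadjusted p under 0.05. In the class I list, the immunoproteasome genes Psme2 (-0.82) and Psmb8 (-0.70) were lower, Psmb8 not without WT replicate 2, KO replicate 1 or KO replicate 3 or under total-count scaling (up to 0.109), while the near-identical class I genes H2-Q6 (3.03) and H2-Q7 (1.81) were higher, with reads that counting may have split between copies. H2-Q6 was lost without WT replicate 2 (0.0569) and H2-Q7 without any library except KO replicate 2 and with DESeq2 (up to 0.141).

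**Figure D4:**
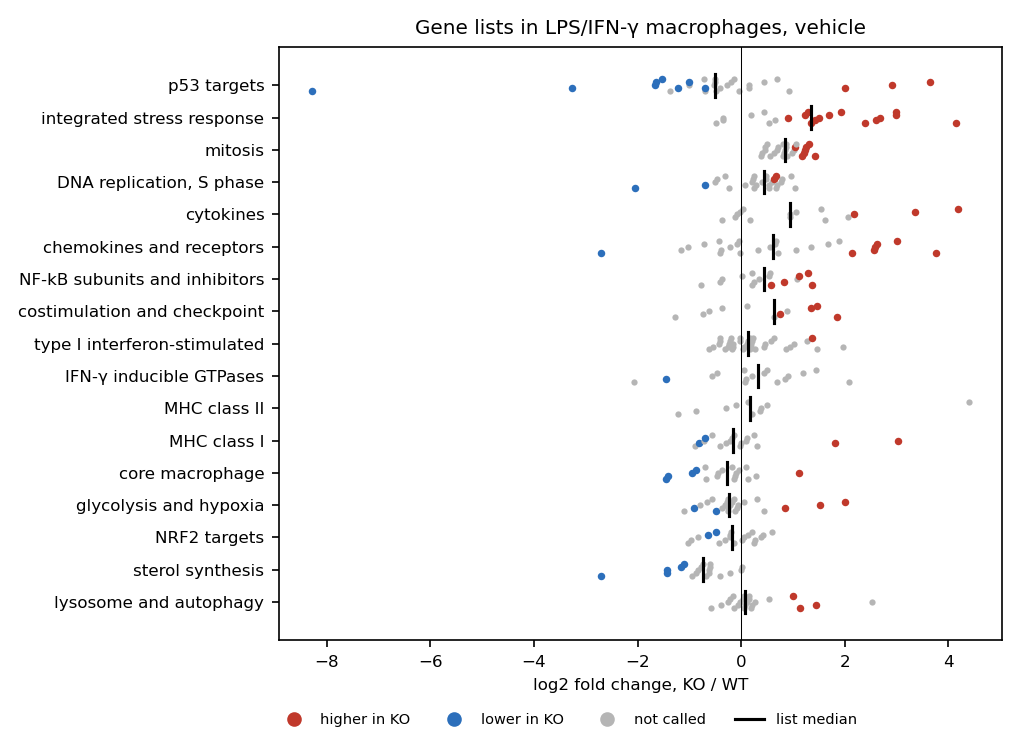
Log2 fold change of KO against WT for the tested members of 17 gene lists, 1 point per gene, red for called higher, blue for called lower and grey for not called, with a black bar at each list's median. The bar lay at 1.35 for the integrated stress response, at -0.50 for p53 targets and at -0.74 for sterol synthesis.

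Genes of mitosis tended upward. Of 26 tested, 7 were called higher and 0 lower (26.9% beside 11.6%), all 26 log2 fold changes were above 0, and the median was 0.85. At an unadjusted p under 0.05, 17 were higher and 0 lower, and DESeq2 called 9 and 0. The count was unstable: it was 9 without KO replicate 1, 3 without KO replicate 2, WT replicate 1 or WT replicate 3, 2 without KO replicate 3, 1 without WT replicate 2, 14 under scaling by total counts, 12 with only the 6 libraries fitted and 20 with no filter on low counts. Cenpf, a kinetochore gene, stood at 63.2, 137 and 106 CPM in KO and at 44.7, 34.4 and 35.8 CPM in WT (log2 fold change 1.42, SE 0.315, edgeR adjusted p 0.00415). The proliferation marker Mki67 was higher by 1.22 (edgeR adjusted p 0.011), a call lost without WT replicate 2 or KO replicate 3 (up to 0.0637). KO replicate 1 had the lowest summed mitosis level of the 3, with the KO sums from 1440 to 3130 CPM and the WT sums from 1170 to 1390 CPM.

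In M0 the same list went the other way. There, 25 of its 26 genes were called lower in KO (median -3.25), beside 16.8% of all tested genes. The genotype effect differed between M1 and M0 for all 26 genes and between M1 and M2 for 0 by edgeR. The shares of all tested genes were 20.7% and 2.87%. Of 26 tested DNA replication genes 2 were called higher and 2 lower in M1 (15.4% beside 11.6%). The counts were 9 and 1 with scaling by total counts, 8 and 2 with only the 6 libraries fitted, 9 and 2 with no filter, and 0 and 0 without WT replicate 1 or KO replicate 3. Ccnd1, the cyclin D1 gene, was lower at 91.5, 72.4 and 95.1 CPM in KO against 394, 356 and 319 CPM in WT (log2 fold change -2.05, edgeR adjusted p 0.019), a call lost without WT replicate 1 or any KO replicate (up to 0.0675). Ccnd3 (-0.70), Cdk4 (0.64) and Cdk6 (0.67) were called and each was lost without WT replicate 1, WT replicate 2 or KO replicate 3 among others (up to 0.152).

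Some sterol synthesis genes were lower. Of 19 tested, 5 were called lower and 0 higher (26.3% beside 11.6%), 18 log2 fold changes were below 0 and the median was -0.74. At an unadjusted p under 0.05, 8 were lower and 0 higher, and DESeq2 called 5 and 0. Msmo1, a sterol demethylation enzyme gene, stood at 25.6, 30.1 and 32.1 CPM in KO and at 63.2, 60.7 and 64.2 CPM in WT (log2 fold change -1.10, edgeR adjusted p 0.00902). The groups did not overlap, and the call of Msmo1 was lost without KO replicate 1 (0.0527). Fdps (-1.16) and Cyp51 (-1.43), which act before and after squalene, were lower at edgeR adjusted p-values of 0.0146 and 0.0302, and both were lost without WT replicate 1, WT replicate 2 or KO replicate 1 and Cyp51 also without WT replicate 3 or KO replicate 3 (up to 0.0853 and 0.131). The count was 1 without KO replicate 1 and 3 without WT replicate 1 or WT replicate 2. All 5 were also called lower in the AP-3-84 libraries, as were 46.7% of all genes called lower in vehicle.

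Macrophage identity genes were lower in part. Of 18 tested, 4 were called lower and 1 higher (27.8% beside 11.6% of all genes), and the summed level was 22600 to 30300 CPM in KO and 49400 to 52500 CPM in WT, a sum that Lyz2 dominated. Lyz2 stood at 11240, 20780 and 12340 CPM in KO and at 37550, 39660 and 40300 CPM in WT (log2 fold change -1.41, edgeR adjusted p 0.0101), a call lost without KO replicate 1 or KO replicate 3 (up to 0.0642). Tyrobp, the adaptor DAP12, stood at 661, 619 and 644 CPM in KO and at 1138, 1275 and 1134 CPM in WT (log2 fold change -0.88, edgeR adjusted p 0.00288). The complement receptor gene C5ar1 (-1.45) and Adgre1 (-0.94) were lower and the galectin gene Lgals3 (1.12) higher, and each was lost without WT replicate 1 or 2 or KO replicate 1 or 3 (up to 0.178). The list held 1 fall and 0 rises without KO replicate 1 or KO replicate 3, and Adgre1 was also lost under total-count scaling (0.075). Csf1r and Cd68 were not called, at log2 fold changes of -0.14 and 0.10.

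Metabolic lists changed in single genes. Of 24 glycolysis and hypoxia genes 3 were called higher and 2 lower (20.8% beside 11.6%), with 1 rise without WT replicate 3 or KO replicate 1 and 0 falls without KO replicate 3, and 4 falls with no filter or only the 6 libraries fitted. The phosphofructokinase gene Pfkp stood at 129, 75.2 and 97.1 CPM in KO and at 61.4, 56.4 and 49.1 CPM in WT (log2 fold change 0.85, edgeR adjusted p 0.00215), while Hk2 was lower (-0.91, lost without KO replicate 3 at 0.0752). Of 20 NRF2 targets 2 were lower (10%, near the 11.6% of all genes), among them Fth1, the ferritin heavy chain gene, at 42910, 39820 and 30750 CPM in KO and 60340, 62590 and 55210 CPM in WT (log2 fold change -0.65, edgeR adjusted p 0.00882), which was lost without KO replicate 3 (0.0818) and under total-count scaling (0.0557). Of 23 lysosome and autophagy genes 3 were higher (13%, near the same 11.6%), led by the autophagy receptor gene Sqstm1 at 1147, 692 and 970 CPM in KO and 438, 452 and 380 CPM in WT (log2 fold change 1.14, edgeR adjusted p 0.000203), the 1 gene of the list whose call no left-out library ended. The transcription factor gene Klf4 was higher by 1.44 (edgeR adjusted p 0.000265).

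The 12 largest rises, for an average log2 CPM of 3 or more, were Gm1821, Mpo, Gm10827, Ltf, BC100530, Il6, Trib3, Ctsk, Cd83, Plk2, Cd5l and Prtn3. Mpo, Ltf and Prtn3 encode granule proteins of neutrophils and their precursors. Mpo stood at 18.4, 16.4 and 21.0 CPM in KO and at 0.298, 0.530 and 0.503 CPM in WT (log2 fold change 5.27, edgeR adjusted p 9.84e-05), and Ltf at 31.0, 5.57 and 46.6 CPM in KO and 0.894, 1.59 and 0 CPM in WT (log2 fold change 5.04, edgeR adjusted p 0.0147). Ctsk, the cathepsin K gene of osteoclasts, stood at 34.1, 15.9 and 64.0 CPM in KO and at 4.77, 3.44 and 0.252 CPM in WT (log2 fold change 3.78, edgeR adjusted p 0.00272). Mpo, Ltf and Ctsk are on the marker lists of other cells whose sums are given above, and Prtn3 is on none of these lists. With the compound in place of vehicle, Mpo, Ltf and Ctsk were not called by edgeR. The fibroblast markers Col1a1 (1.90), Col1a2 (1.61) and Dcn (2.21) were also called higher, and all 3 were called higher again with the compound. Calls were lost without 1 library for Ltf (WT replicate 1, WT replicate 3 or KO replicate 3, up to 0.0699), Col1a1 (WT replicate 3, 0.0597), Col1a2 (WT replicate 1, WT replicate 3 or KO replicate 3, up to 0.146), and, without any library except KO replicate 2, BC100530 (up to 0.143), Cd5l (0.166) and Dcn (0.14).

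Among the 12 largest falls were Apoo, Ubb, Draxin, Dmpk, Cx3cr1, Ctla2b, Rps16-ps2, Susd2, Id1, Aacs and Slc2a9. The kinase gene Dmpk was the most even of them, at 8.52, 10.1 and 8.26 CPM in KO and 62.6, 59.1 and 67.0 CPM in WT (log2 fold change -2.81, SE 0.334, edgeR adjusted p 2.37e-06). Slc2a9, a urate transporter gene, stood at 8.24, 14.2 and 7.81 CPM in KO and at 42.3, 40.0 and 43.3 CPM in WT (log2 fold change -2.05, edgeR adjusted p 0.000115). Id1, an inhibitor of differentiation factors, was lower as well (log2 fold change -2.06, edgeR adjusted p 0.00807). In edgeR with only the 18 vehicle libraries its adjusted p was 0.054. Calls were lost without any library except KO replicate 2 for Rps16-ps2 (up to 0.146) and Susd2 (0.155), and without WT replicate 1, WT replicate 3, KO replicate 1 or KO replicate 3 for Apoo (0.148).

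Ubb, a polyubiquitin gene, and Gm1821, a near-identical copy, changed in opposite directions. Ubb stood at 26.1, 248 and 63.2 CPM in KO and at 1058, 1056 and 1074 CPM in WT (log2 fold change -3.24, SE 0.705, edgeR adjusted p 0.00447). Fitting only the 6 libraries gave an adjusted p of 0.0921 in edgeR. Gm1821 stood at 80.8, 23.04 and 65.6 CPM in KO and had 0 counts in the 3 WT libraries, at least 208-fold higher against a group floor of 3 counts (edgeR adjusted p 0.0037). Counting may have split reads between the copies, so the separate values are uncertain. Their sum was 107 to 271 CPM in KO and 1056 to 1074 CPM in WT, and in the AP-3-84 libraries 132 to 326 CPM in KO and 972 to 1124 CPM in WT.

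The genotype effect in M1 was set against that in M0 and M2. Those comparisons called 3906 genes (33.2%; 16.4% higher and 16.8% lower) in M0 and 419 (3.56%; 1.21% higher and 2.34% lower) in M2, and the difference of the effects, tested as an interaction that shares the M1 libraries, was called for 2442 genes (20.7%; 11.2% above and 9.51% below 0) between M1 and M0 and for 338 (2.87%; 1.83% above and 1.04% below 0) between M1 and M2. The M1 minus M2 count rested on single libraries: it was 934 without KO M1 replicate 2, 86 without KO M1 replicate 1 and 104 without KO M1 replicate 3. Of the 29 tested p53 targets, 14 were lower and 1 higher in M0 and 12 lower and 0 higher in M2, and the difference from M1 was called for 11 and 3 of them. Cdkn1a fell less in M1 (log2 fold change -1.54) than in M0 (-4.58) or M2 (-3.21), with differences of 3.04 (edgeR adjusted p 4.72e-06) and 1.68 (0.0195). Its KO level was 232 ± 31.1 CPM in M1, 38.8 ± 6.12 in M0 and 96.9 ± 43.5 in M2 (SD, n = 3). Mdm2, at a log2 fold change of 0.14 in M1, was lower in KO in M0 (-1.89) and M2 (-2.01), and both differences were called (2.04, edgeR adjusted p 0.000351, and 2.15, 0.00232). Ccng1 was lower in each state, at log2 fold changes of -1.67, -2.22 and -1.75 in M1, M0 and M2, and neither difference was called (edgeR adjusted p 0.234 and 0.938).

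**Figure D5:**
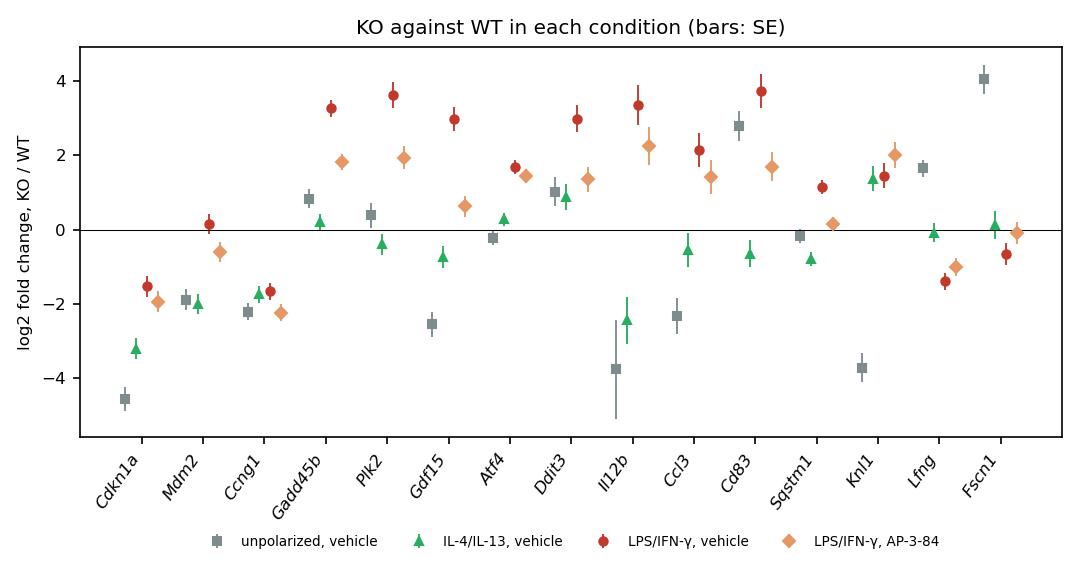
Log2 fold change of KO against WT with its SE (bars) for 15 genes in M0 with vehicle (grey squares), M2 with vehicle (green triangles), M1 with vehicle (red circles) and M1 with AP-3-84 (orange diamonds). Gadd45b and Plk2 stood highest in M1 with vehicle, and Knl1 was higher in KO in M1 and M2 and lower in M0.

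The genes with the lowest p in these interactions were Gdf15, Lfng, Knl1 and Fscn1 for M0, and Gadd45b, Plk2, Gdf15 and Sqstm1 for M2. Gadd45b changed by 0.84 in M0 and 0.20 in M2 against 3.27 in M1, where the WT level was 11.2 ± 1.88 CPM and the KO level 109 ± 13.1 CPM (SD, n = 3). Plk2 was not called in M0 (0.38) or M2 (-0.40) and rose by 3.64 in M1. Knl1, a kinetochore gene, was higher in M1 (1.46) and lower in M0 (-3.73). Lfng, a Notch-modifying glycosyltransferase gene, was lower in M1 (-1.40) and higher in M0 (1.66). Fscn1, an actin-bundling gene, was higher in M0 (4.06) and not called in M1 (-0.66, edgeR adjusted p 0.14).

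Genes near Trp53 on chromosome 11 were also listed. Within 1 Mb on either side of the gene, 61 genes were tested and 12 were called (19.7% beside 11.6% of all genes and 14% of the 963 on chromosome 11), 7 higher and 5 lower. The nearest called gene was Eif4a1, 86.6 kb away, at a log2 fold change of -0.64, which was lost without WT replicate 1 or 2 or KO replicate 1 or 3 (edgeR adjusted p up to 0.179). Myh10, a non-muscle myosin gene, had 9, 3 and 17 counts in KO and 0 in the 3 WT libraries, at least 8.89-fold higher against a group floor of 3 counts (edgeR adjusted p 0.0043). The histone demethylase gene Kdm6b was higher by 1.84 (edgeR adjusted p 0.00342), and Rnasek was lower (-0.80, 0.00112). On the other autosomes and X the share called ranged from 8.3% (chromosome 13) to 14.2% (chromosome 14), and on Y 0 of 5 tested genes were called by edgeR.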

How the data were processed

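Poly(A)-primed 3′ tags (QuantSeq FWD, 3′ mRNA-Seq) were sequenced from 100 ng of RNA as single reads of 75 bases, per the labels' protocols. The authors deposited one table of whole-number counts per gene, and Bowtie2, RSEM and DESeq2 are named in the submitters' processing notes, without roles or versions. The sources used here do not give the genome build, the use of strand or of molecular identifiers, or whether the counts are rounded estimates. Of 51789 gene identifiers, 51596 matched the GENCODE annotation on GRCm38, which gave symbols and coordinates, and 0 of 37 mitochondrial genes were in the table.

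The counts of the 36 bone marrow-derived libraries were scaled by TMM, filtered by group with filterByExpr and fitted in edgeR 4.0.16 (robust quasi-likelihood, 1 mean for each of 12 groups), with Benjamini-Hochberg adjustment over the 11779 genes tested. The fit was tested on simulated data. The common biological coefficient of variation was 0.225. Alternatives were median-ratio and total-count scaling, no filter, DESeq2 1.42.0, fits of fewer libraries, a fold threshold, a block by replicate number, and leaving out each library. The members and lists were chosen with earlier results of these data known. Genes were named by a rule: the 12 highest and 12 lowest log2 fold changes (called genes, groups not overlapping, mean log2 CPM at or above 3), all p53 targets, up to 4 members with the lowest p in each other list, and the 4 genes with the lowest p in each test of a difference. Further genes of the lists and the genes near Trp53 were added after their values were seen. Some genes are not reported here. Total counts ranged from 3625160 to 4645148, and intervals given for counts cover counting error only.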

Additional observations from a re-analysis of the deposited data

Results flagged for a closer look

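The results below are those for which the difference in genotype effect between polarization states was itself called by edgeR (adjusted p under 0.05), given as the log2 effect of KO against WT in M1 minus that in the other state. No cause was tested.

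Against M0, 2442 genes were called. The difference was above 0 for Gadd45b (2.44), Plk2 (3.25), Gdf15 (5.54), Knl1 (5.19), Sqstm1 (1.32), Cdkn1a (3.04), Mdm2 (2.04), Atf4 (1.92), Il12b (7.13) and Ccl3 (4.48), and below 0 for Lfng (-3.05) and Fscn1 (-4.71). Il12b was lower in KO in M0 (log2 fold change -3.78) and M2 (-2.45), and higher in M1 (3.36). Ccl3 was lower in KO in M0 (-2.34) and higher in M1 (2.15).

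Against M2, 338 genes were called. The difference was above 0 for Gadd45b (3.07), Plk2 (4.03), Gdf15 (3.73), Sqstm1 (1.95), Cd83 (4.39), Cdkn1a (1.68), Mdm2 (2.15), Atf4 (1.42), Il12b (5.81) and Ccl3 (2.7), and below 0 for Lfng (-1.31). The count of 338 was 934 without KO M1 replicate 2, 86 without KO M1 replicate 1, 104 without KO M1 replicate 3, 121, 118 and 209 without WT M1 replicates 1, 2 and 3, 194 without WT M2 replicate 1 and 175 without KO M2 replicate 3.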

How the results depend on the processing

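The count of 1372 genes was 1372 with median-ratio size factors, 1598 with DESeq2, 1768 with no filter on low counts, 1635 and 1153 with only the 6 or the 18 vehicle libraries fitted, 2093 with scaling by total counts, 623 with a 2-fold threshold, and 580 to 1778 with 1 library left out. The AP-3-84 count of 1395 was 1931 with scaling by total counts (86.8% upward in place of 42.7%), 494 with a 2-fold threshold and 623 to 977 with 1 library left out. The 2442 differences from M0 stayed between 1772 and 2733 in all alternatives run, with 76.4% above 0 in place of 54.1% with scaling by total counts. The 338 differences from M2 were 936 with no filter on low counts, 600 with DESeq2, 80 with only the libraries compared, 158 with only the vehicle libraries, 315 with scaling by total counts (79.4% above 0 in place of 63.6%) and 86 to 934 with 1 library left out. The cause of these changes was not tested. Replicate numbers are shared between the genotypes. Deviations of same-numbered KO and WT libraries correlated at r of -0.065, 0.052 and 0.045 over genes. Those of differently numbered libraries ranged from -0.141 to 0.112. With 3 libraries per group these values cannot decide whether the numbers pair the libraries. With the replicate number as a block the 4 counts were 1351, 1346, 2373 and 332. Of 150 named genes 124 were called, and 46 of these in every alternative. Uncalled genes changed sign as follows on the log2 scale. With scaling by total counts Trp53 was at 0.034, Fas at 0.22, Tnfrsf10b at 0.143, Pidd1 at 0.0639 and Csf1r at 0.132. With 1 library left out the range was -0.447 to 0.0849 for Trp53, -0.411 to 0.265 for Fas, -0.722 to 0.322 for Tnfrsf10b, -0.599 to 0.189 for Pidd1, -0.0278 to 0.462 for Ercc5, -0.114 to 0.234 for Tnf and -0.0876 to 0.314 for Cd68.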

Other observations

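A few further metabolic and receptor genes are added as values. Aacs, which makes acetoacetyl-CoA in the cytosol, was lower in KO (log2 fold change -2.06, edgeR adjusted p 0.00267), while Abcg1, a cholesterol efflux transporter gene, was higher (1.44, 0.0181), a call lost without WT replicate 1 or WT replicate 2 (up to 0.0942). Vegfa, the vascular growth factor gene, stood at 19.8, 11.4 and 10.9 CPM in KO and at 4.77, 3.44 and 2.27 CPM in WT (log2 fold change 2.01, edgeR adjusted p 0.0188), and the call was lost without WT replicate 2, WT replicate 3 or KO replicate 1 (up to 0.091).

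Of 16 tested Toll-like receptor pathway genes, 2 were called lower and 0 higher by edgeR (12.5%, near the 11.6% of all genes), with 1 higher at an unadjusted p under 0.05 and 0 by DESeq2. With AP-3-84, 0 of the 16 were called in either direction by edgeR, beside 11.8% of all tested genes. The adaptor gene Myd88 stood at 60.7, 83.8 and 63.6 CPM in KO and at 132, 137 and 123 CPM in WT (log2 fold change -0.91, edgeR adjusted p 0.00494). Tlr7, a sensor of single-stranded RNA, was lower too (-0.88, edgeR adjusted p 0.0119) but not without WT replicate 3, KO replicate 1 or KO replicate 3, nor with scaling by total counts (0.0746).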
